A study of Mus musculus with 23 samples.

Results

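The acrosome is a secretory vesicle over the sperm nucleus that round spermatids build from the Golgi. It holds the enzymes and binding proteins that a sperm uses to pass the coat of the egg, and its inner and outer membranes carry proteins needed for gamete adhesion. The genes described here are 8 that encode acrosomal or sperm head proteins, of 18193 genes measured; they were taken by symbol, by a rule that used no measured value, though with earlier results of these data known. *Acr* encodes acrosin, the trypsin-like protease stored as proacrosin, and *Acrbp* the protein that binds proacrosin and helps to pack it into granules. *Zpbp* and *Zpbp2* encode a pair of related acrosomal matrix proteins named for their binding to the zona pellucida. *Acrv1* encodes SP-10, a soluble protein of the acrosomal matrix, *Spaca1* a membrane protein needed to shape the acrosome and nucleus, and *Spaca3* a lysozyme-like acrosomal protein. *Sun5* encodes a SUN-domain protein of the nuclear envelope that is known for anchoring the sperm head to the tail.

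RNA came from germ cells of adult mouse testis sorted by staining of their DNA with a Hoechst dye, and each RNA was hybridised to 1 Affymetrix array. The 20 wild-type arrays, from C57BL6 x DBA2J F1 males aged 10 to 16 weeks, covered spermatogonia (n = 4), pre-leptotene (n = 3), leptotene/zygotene (n = 3), early pachytene (n = 1), mid-pachytene (n = 2), late pachytene (n = 1), diplotene (n = 2) and round spermatids (n = 4). The first 3 of these fractions were also taken from Spo11-/- males of the same age range, 1 array each, whose strain background is not given in the sources used here. Each Spo11-/- fraction was collected in 2 sorts from pooled testes of 4 and 3 mice, so it is 1 pooled sample, and the 3 fractions may share mice. SPO11 makes the DNA breaks that start meiotic recombination, and without it spermatocytes arrest in prophase and no spermatids form. Wild-type replicates are labelled biological.

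Levels are log2(deposited intensity + 1) of 1 probe set a gene. A level of log2 4 was the filter on dim genes, which all 8 acrosome genes passed. Probe sets differ in brightness for the same amount of RNA, so changes, not levels, are set against each other between genes. In bulk RNA of a sorted fraction, more cells of a type and more RNA per cell cannot be told apart. A gene is said to have risen or fallen where its log2 change was at least 1 in size and limma, with Benjamini-Hochberg adjustment across every gene in the fit, gave p below 0.05.

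Not every fraction carried the markers of its label alone. Spermatogonial markers had similar medians in wild-type spermatogonia (10.75 to 11.64), pre-leptotene (11.40 to 11.72) and leptotene/zygotene arrays (11.59 to 12.12). Their medians were still 10.14 to 10.66 at mid-pachytene, and were 5.81 to 6.68 at diplotene and 3.74 to 6.40 in round spermatids. The 14 spermatid markers, protamines and transition proteins among them, had medians of 13.18, 13.95, 11.53 and 10.71 in the 4 wild-type spermatogonia arrays, against 12.09 to 12.96 in round spermatids and 2.86 to 3.28 in the Spo11-/- arrays. *Spo11* itself read 4.30, 4.80 and 5.21 in the Spo11-/- spermatogonia, pre-leptotene and leptotene/zygotene arrays. In the wild-type arrays of these fractions it read 4.60 to 6.69, 4.61 to 7.03 and 7.42 to 8.95. Whether its probe set lies in the deleted part is not given in the sources used here.

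All 8 acrosome genes were highest in round spermatids, and all were lowest, among wild-type fraction means, in pre-leptotene cells. *Acr* rose from 4.32, 6.42 and 5.33 in the 3 pre-leptotene arrays to 12.64, 12.95, 13.11 and 12.62 in the 4 round spermatid arrays. The groups did not overlap, as they did not for any of the 8 genes and, in this direction, for 37.0% of all genes. The change was 7.47 ± 0.63 (SE) on the log2 scale (limma, adjusted p = 2.41e-08). *Sun5* went from 2.63, 5.98 and 3.13 to 11.04, 11.89, 11.79 and 10.23, a change of 7.33 ± 0.79 (limma, adjusted p = 3.58e-07). *Acrv1* changed by 7.25 ± 0.72, *Spaca1* by 6.87 ± 0.70, *Acrbp* by 6.67 ± 0.74, *Zpbp2* by 6.63 ± 0.80, *Spaca3* by 6.11 ± 0.55 and *Zpbp* by 5.85 ± 0.62. All 8 of 8 rose, where 31.9% of the 13087 genes tested did, and all 8 did so in each alternative analysis. The spermatid markers were already bright in pre-leptotene arrays (medians 9.53 to 10.56) and 12 of 14 rose over the same span, all but *Prm1* and *Prm2*, with a median change of 2.32. All 7 pachytene markers rose, with a median of 4.73. The median was 6.77 for the acrosome genes and -0.08 for all genes.

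**Figure D1:**
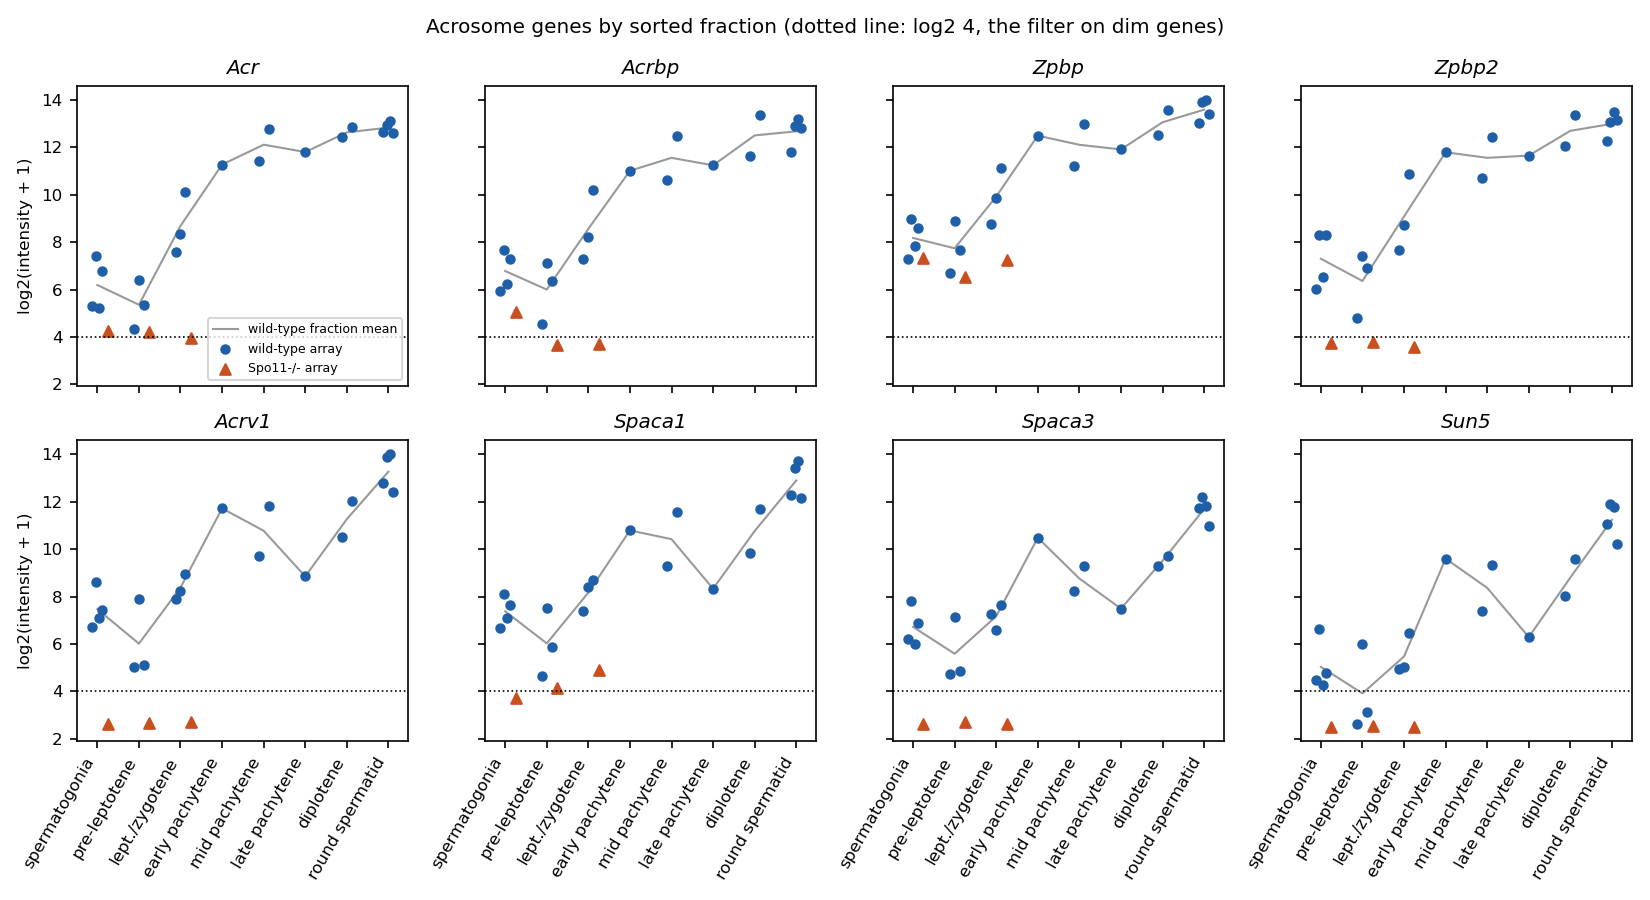
Level of each acrosome gene, as log2(intensity + 1), in every array of each sorted fraction. Blue points are wild-type arrays, the grey line joins their fraction means, orange triangles are the single Spo11-/- arrays and the dotted line is the filter on dim genes at log2 4. All 8 genes are highest in round spermatids, and the bottom row (Acrv1, Spaca1, Spaca3, Sun5) dips at the late pachytene array.

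The promoters are shown because the 8 genes rose together and CREM, which binds the cAMP response element (CRE), is a well known activator of spermatid genes. RefSeq promoter windows on GRCm38.p6 lie mostly upstream of a transcription start. None was at hand for *Acr*, which was not searched, and 9 windows were at hand for the other 7 genes. The full CRE, TGACGTCA, was found on neither strand of any of them (1.79% of 32851 promoters hold it). Its core, TGACG, searched on both strands and contained in the full CRE, was in windows of *Acrbp*, *Spaca1*, *Spaca3* and *Zpbp2* and in 20.8% of all promoters. These 4 are printed on the gene's strand, 5′ to 3′, with that core or its reverse complement in capitals. The windows are chr6:125049677-125049976 (plus strand) for *Acrbp*, chr4:34050016-34050315 (minus strand) for *Spaca1*, chr11:80858113-80858412 (plus strand) for *Spaca3* and chr11:98550847-98551146 (plus strand) for *Zpbp2*.
Acrbp: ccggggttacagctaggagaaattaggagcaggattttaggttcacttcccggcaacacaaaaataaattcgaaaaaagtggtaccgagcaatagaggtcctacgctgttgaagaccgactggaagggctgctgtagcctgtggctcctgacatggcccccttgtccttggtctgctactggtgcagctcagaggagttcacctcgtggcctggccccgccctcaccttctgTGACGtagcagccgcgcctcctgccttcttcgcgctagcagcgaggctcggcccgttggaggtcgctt
Spaca1: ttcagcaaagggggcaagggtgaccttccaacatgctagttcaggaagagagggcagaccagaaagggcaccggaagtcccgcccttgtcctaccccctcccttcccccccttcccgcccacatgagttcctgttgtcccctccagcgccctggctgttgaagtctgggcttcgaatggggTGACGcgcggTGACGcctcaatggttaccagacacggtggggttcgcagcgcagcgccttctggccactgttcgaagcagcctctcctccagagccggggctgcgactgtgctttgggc
Spaca3: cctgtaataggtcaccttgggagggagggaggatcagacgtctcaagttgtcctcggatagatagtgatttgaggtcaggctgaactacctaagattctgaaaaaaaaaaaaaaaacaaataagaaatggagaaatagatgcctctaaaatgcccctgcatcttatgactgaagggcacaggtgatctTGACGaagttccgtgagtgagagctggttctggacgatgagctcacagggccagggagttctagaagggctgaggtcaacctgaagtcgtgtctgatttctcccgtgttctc
Zpbp2: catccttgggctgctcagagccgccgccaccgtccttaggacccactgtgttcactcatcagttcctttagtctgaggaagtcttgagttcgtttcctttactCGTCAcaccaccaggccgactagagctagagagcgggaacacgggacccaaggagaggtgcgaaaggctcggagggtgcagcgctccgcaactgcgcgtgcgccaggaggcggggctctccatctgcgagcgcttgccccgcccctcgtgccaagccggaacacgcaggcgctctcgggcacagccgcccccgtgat
Relative to the start, the core begins at -69 and -59 in *Spaca1*, at -62 in *Spaca3*, at -18 in *Acrbp* and, as the reverse complement, at -147 in *Zpbp2*. *Spaca1* and *Spaca3* each have a further window that overlaps the one shown.

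The same windows were searched for other motifs of germ cell factors. The MYB core, AACNG, was in windows of 6 of the 7 genes, all but *Spaca3*, and in 80.3% of all promoters. Part of the X-box, GTTGCC, which RFX factors recognise, was in *Acrbp* alone (12.5% of all promoters). The SOX core, ACAAT, was in *Acrv1* alone (31.0%). The E-box CACGTG (7.15%) and the TATA box TATAAA (13.6%) were in none of the 9 windows. All motifs were searched on both strands. A match describes letters, not a bound site.

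Between spermatogonia and pre-leptotene cells no acrosome gene passed the test, and all 8 means were lower in pre-leptotene. *Acrv1* read 6.70, 8.63, 7.09 and 7.45 in the 4 spermatogonia arrays and 5.02, 7.90 and 5.12 in the 3 pre-leptotene arrays. These groups overlapped, as they did for every acrosome gene, while 5.88% of all genes had each pre-leptotene array below each spermatogonia array. Differences ran from -0.44 ± 0.62 for *Zpbp* to -1.45 ± 0.72 for *Acrv1* (limma, lowest adjusted p of the 8 = 0.498, for *Spaca3*). The count of 0 of 8 stands against 1.64% of all genes that fell and 0.0611% that rose, and none of the 8 had an unadjusted p below 0.05. The list's median change was -1.03, beside -2.54 for the spermatid markers, 6 of 14 of which fell, and -0.01 for all genes. Peritubular and stromal markers fell in 3 of 5 (median -3.23) and macrophage and leukocyte markers in 2 of 5 (median -2.94). The part of these lists in the difference was not tested.

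Because the spermatogonia arrays held spermatid transcripts, round spermatids were also set against them, a comparison added after those values were seen. It shares the round spermatid arrays with the one against pre-leptotene cells. Here all 8 acrosome genes rose, from 4.98 ± 0.51 for *Spaca3* to 6.64 ± 0.59 for *Acr* (limma, adjusted p = 1.93e-07 and 3.61e-08), where 30.2% of all genes did. No round spermatid array overlapped with a spermatogonia array for any of the 8, against 32.6% of all genes. Of the 14 spermatid markers 1 rose, *Cabyr* (4.43 ± 0.37), and their median change was -0.26, against 5.75 for the acrosome genes. All 7 pachytene markers rose, with a median of 4.07. The levels of *Acrv1* and *Prm1* show this side by side, each against itself. *Acrv1* averaged 7.47 in spermatogonia and 13.27 in round spermatids, and *Prm1*, which encodes protamine 1, averaged 14.78 and 14.41.

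**Figure D2:**
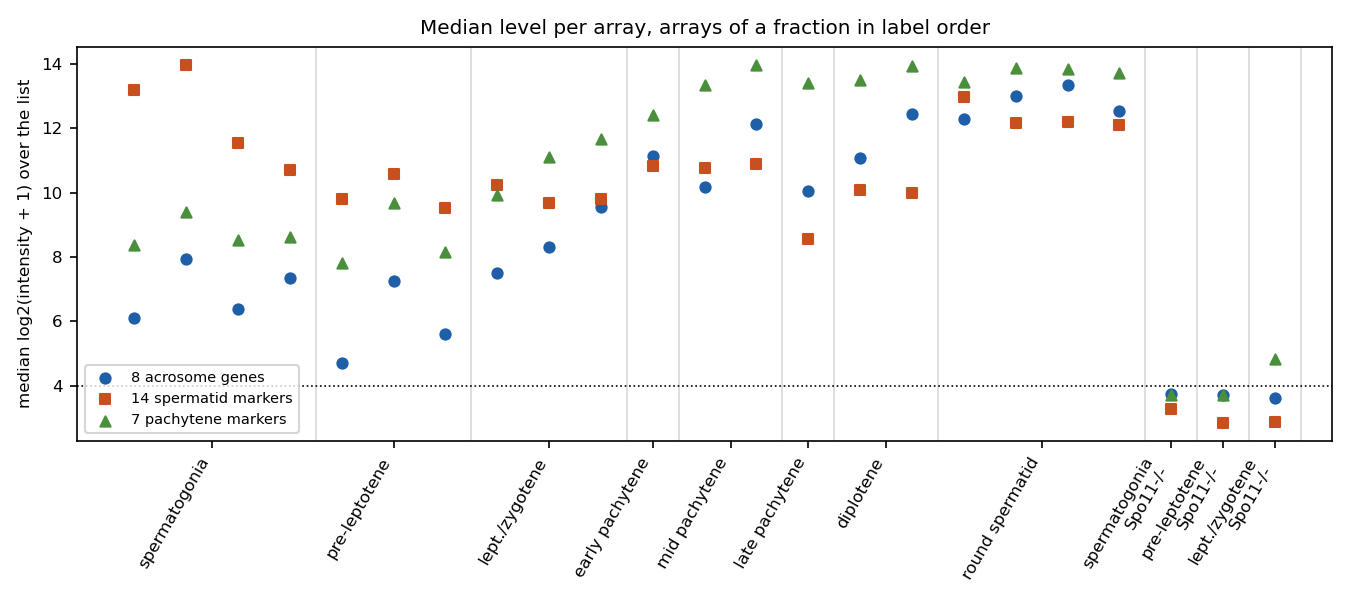
Median log2(intensity + 1) per array of the 8 acrosome genes (blue circles), 14 spermatid markers (orange squares) and 7 pachytene markers (green triangles), with arrays of a fraction in label order. The spermatid markers lie at 10.71 to 13.95 in wild-type spermatogonia and at 12.09 to 12.96 in round spermatids. The acrosome genes lie at 6.12 to 7.95 and at 12.27 to 13.34 in these fractions. In the 3 Spo11-/- arrays both lists lie below log2 4.

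At leptotene/zygotene *Acr* rose from pre-leptotene, and the means of the other 7 were higher without passing the test. *Acr* read 7.60, 8.35 and 10.10 in the 3 leptotene/zygotene arrays, each above every pre-leptotene array, a change of 3.33 ± 0.68 (limma, adjusted p = 0.0184). *Zpbp2* (7.65, 8.71 and 10.89) was 2.72 ± 0.86 higher, *Acrbp* (7.27, 8.22 and 10.19) 2.56 ± 0.79 and *Zpbp* (8.77, 9.85 and 11.14) 2.18 ± 0.66, with adjusted p of 0.110, 0.103 and 0.0940 in limma. Array 3 was the highest of the leptotene/zygotene arrays for all 4 of these genes. *Acrv1* was 2.36 ± 0.77 higher, *Spaca1* 2.14 ± 0.74, *Spaca3* 1.58 ± 0.59 and *Sun5* 1.56 ± 0.85, with adjusted p from 0.124 to 0.524. The count of 1 of 8 stands against 3.03% of all genes that rose. The groups did not overlap for *Acr*, *Acrv1*, *Acrbp* and *Zpbp2*, against 13.1% of all genes. Some margins were narrow. The lowest leptotene/zygotene and highest pre-leptotene arrays read 7.91 and 7.90 for *Acrv1*, and 7.27 and 7.10 for *Acrbp*. For *Zpbp*, which overlapped, they read 8.77 and 8.87. The median change was 2.27 for the acrosome genes and -0.07 for the spermatid markers, 0 of 14 of which rose. It was 2.33 for the pachytene markers, 5 of 7 of which rose, and their part in the change of the acrosome genes was not tested.

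This step depended on the arrays and on the pairing. With the replicate number as a block, 6 of 8 rose: *Acr* (adjusted p = 0.00854), *Zpbp* (0.0132), *Acrbp* (0.0133), *Spaca1* (0.0135), *Zpbp2* (0.0168) and *Acrv1* (0.0205), while *Spaca3* (0.111) and *Sun5* (0.212) did not pass limma's test. The call of *Acr* ended without pre-leptotene array 1 (adjusted p = 0.112), pre-leptotene array 3 (0.0721) or leptotene/zygotene array 3 (0.123), which left 0 members. Without pre-leptotene array 2, 5 rose, and without leptotene/zygotene array 1, 4 rose. The numbered arrays also moved together in level: array 2 was above array 1 for all 8 genes in spermatogonia, pre-leptotene, mid-pachytene, diplotene and round spermatids, and for 7 of 8 in leptotene/zygotene. The median gap, array 2 minus array 1, ran from 0.86 in leptotene/zygotene cells and round spermatids to 2.58 in pre-leptotene cells. The part of this gap in the changes was not tested beyond the block.

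Between leptotene/zygotene and mid-pachytene 6 of 8 rose, against 14.2% of all genes. *Acr* read 11.44 and 12.78 at mid-pachytene, a change of 3.43 ± 0.76 (limma, adjusted p = 0.00341). *Acrbp* (10.62 and 12.49) rose by 3.00 ± 0.89 (0.0176), *Sun5* (7.39 and 9.34) by 2.90 ± 0.95 (0.0283) and *Zpbp* (11.21 and 13.00) by 2.19 ± 0.74 (0.0334). Both mid-pachytene arrays were above every leptotene/zygotene array for these 4. *Acrv1* (9.72 and 11.83) rose by 2.40 ± 0.86 (0.0422) and *Spaca1* (9.28 and 11.56) by 2.25 ± 0.83 (0.0479). *Zpbp2* (10.69 and 12.42) was 2.47 ± 0.96 higher and *Spaca3* (8.23 and 9.29) 1.59 ± 0.66, with adjusted p of 0.0579 and 0.0740. The groups did not overlap for 7 of 8, against 26.9% of all genes, *Zpbp2* being the exception. The spermatid markers, of which 1 of 14 rose (*Cabyr*, 1.46 ± 0.47), changed by a median of 0.91, the pachytene markers, of which 5 of 7 rose, by 2.00, and the acrosome genes by 2.44. With the replicate number as a block, 7 rose, *Zpbp2* (adjusted p = 0.00460 in limma) being added. Without mid-pachytene array 2 the count was 0, without leptotene/zygotene array 1 or array 2 it was 1 (*Acr*), and without the filter on dim genes it was 2 (*Acr* and *Acrbp*).

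From mid-pachytene to diplotene no acrosome gene passed the test. The differences were positive for all 8, from 0.34 ± 0.91 for *Spaca1* to 1.14 ± 1.05 for *Zpbp2* (limma, adjusted p = 0.855 and 0.490), and smaller than or close to their errors. Of all genes, 6.98% rose and 14.5% fell. None of the 8 had an unadjusted p below 0.05. *Acrv1* read 10.50 and 12.03 at diplotene, overlapping its 9.72 and 11.83 at mid-pachytene. The arrays overlapped for all 8 genes, while 29.6% of all genes had both diplotene arrays above both mid-pachytene arrays. All 8 spermatogonial markers fell at this step, with a median change of -3.97. Of the 14 spermatid markers 1 fell (median -0.845), and of 5 peritubular and stromal markers 2 fell (median -1.66). The 7 pachytene markers had a median of 0.34, with 0 past the test, and the acrosome genes 0.63. The part of these lists was not tested.

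Between diplotene and round spermatids 1 of the 8 genes passed the test. *Spaca3* rose, from 9.29 and 9.73 to 11.73, 12.21, 11.84 and 10.99, a change of 2.19 ± 0.62 (limma, adjusted p = 0.0158). *Sun5* went from 8.02 and 9.59 to between 10.23 and 11.89, a difference of 2.43 ± 0.90 (0.0546). *Spaca1* went from 9.85 and 11.68 to between 12.14 and 13.72, a difference of 2.13 ± 0.79 (0.0550), and *Acrv1* from 10.50 and 12.03 to between 12.42 and 14.01, a difference of 2.01 ± 0.81 (0.0798). For these 4 genes every round spermatid array was above both diplotene arrays, as it was for 21.8% of all genes. *Zpbp*, *Zpbp2*, *Acr* and *Acrbp* differed by 0.53 ± 0.70, 0.30 ± 0.91, 0.20 ± 0.72 and 0.17 ± 0.84, and their groups overlapped (adjusted p = 0.669 to 0.935). Whether the changes of these sets of 4 differ was not tested. The count of 1 of 8 stands against 12.5% of all genes that rose. With the replicate number as a block it was 4, *Acrv1*, *Spaca1*, *Spaca3* and *Sun5* (limma, adjusted p = 0.00316 to 0.0106). This step has 2 pairs of numbered arrays, whose deviations correlated at 0.606 and 0.071 over probe sets. Without diplotene array 1 it was 0, and the change of *Spaca3* was 1.97 (adjusted p = 0.138). Without round spermatid array 4 it was 3, *Spaca1*, *Spaca3* and *Sun5*. Of the 14 spermatid markers 12 rose, with a median of 2.24, and of 5 peritubular and stromal markers 3 rose, with a median of 2.40. The part of either in these changes was not tested.

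**Figure D3:**
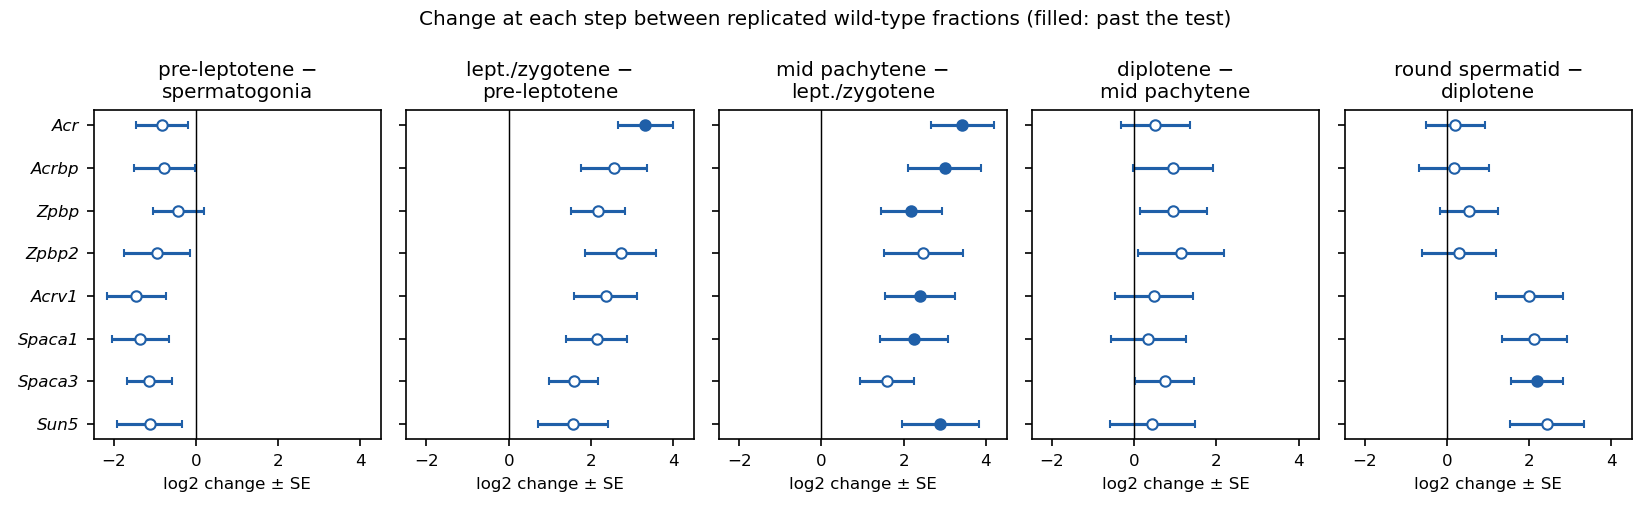
Log2 change ± SE of each acrosome gene at the 5 steps between replicated wild-type fractions; filled circles passed the limma test. In the right panel Acrv1, Spaca1, Spaca3 and Sun5 lie at 2.01 to 2.43, with only Spaca3 filled, and the other 4 genes at 0.17 to 0.53.

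The order of levels over all 8 fractions is a description, made after the values were seen and given without a test. Expressed as a share of the log2 rise from pre-leptotene to round spermatids, diplotene means had reached 97.4% for *Acrbp*, 97.3% for *Acr*, 95.5% for *Zpbp2* and 90.9% for *Zpbp*. They had reached 72.3% for *Acrv1*, 69.0% for *Spaca1*, 66.8% for *Sun5* and 64.2% for *Spaca3*. Fraction means came within log2 1 of the highest at mid-pachytene for *Acr*, at diplotene for *Acrbp*, *Zpbp* and *Zpbp2*, and at round spermatids for the others. The largest single step was into leptotene/zygotene for *Acr*, *Acrbp* and *Zpbp2*, with near ties at the next step, into the single early pachytene array, for *Zpbp2* (2.72 and 2.71) and *Acrbp* (2.56 and 2.45). It was into early pachytene for *Sun5* (4.13), *Acrv1* (3.34), *Spaca3* (3.31), *Spaca1* (2.62) and *Zpbp* (2.57). The first fraction with all arrays above all pre-leptotene arrays was leptotene/zygotene for *Acr*, *Acrv1*, *Acrbp* and *Zpbp2*. It was early pachytene, a single array, for the rest. This split was close for *Acrv1* and *Zpbp*. Their lowest leptotene/zygotene and highest pre-leptotene arrays read 7.91 and 7.90 for *Acrv1*, and 8.77 and 8.87 for *Zpbp*.

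**Figure D4:**
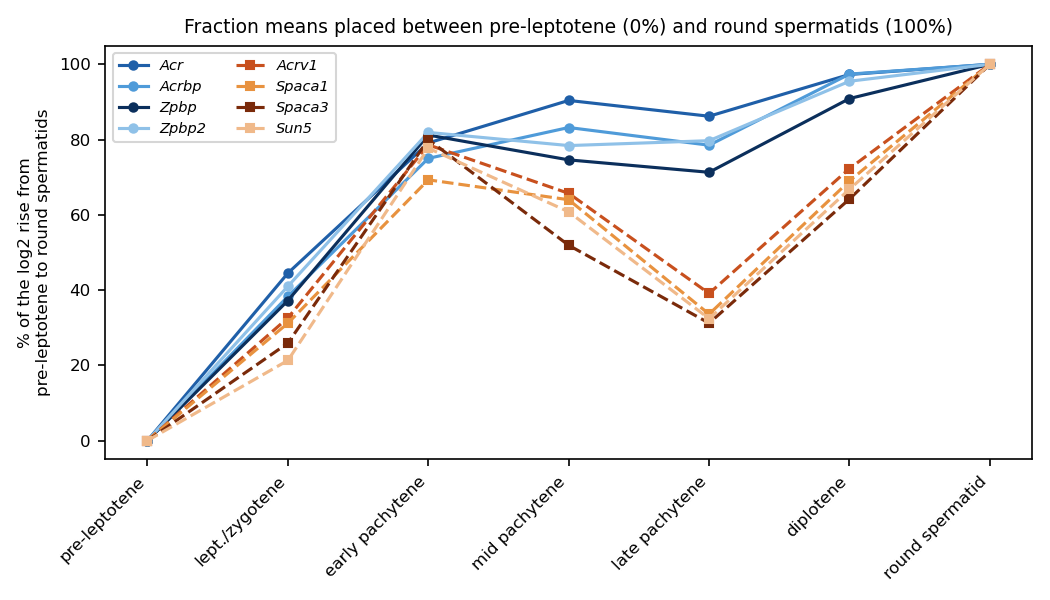
Fraction mean of each acrosome gene as a percentage of its log2 rise from pre-leptotene (0%) to round spermatids (100%); early and late pachytene are 1 array each. Solid lines (Acr, Acrbp, Zpbp, Zpbp2) stay at 71.3% or more from early pachytene on, and dashed lines (Acrv1, Spaca1, Spaca3, Sun5) drop to between 31.2% and 39.1% at late pachytene.

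The early and late pachytene fractions, with 1 array each, have no replicate check. In the early pachytene array all 8 genes were above every leptotene/zygotene array, as were 31.8% of all genes, and *Spaca3* (10.48) and *Sun5* (9.60) were above both mid-pachytene arrays, as were 36.0%. In the late pachytene array *Acrv1* read 8.85, *Spaca1* 8.33, *Spaca3* 7.49 and *Sun5* 6.29. Each lay below every mid-pachytene and diplotene array, as did 13.0% of all genes, and at least log2 1 below early pachytene, as did 23.0%. *Acr* (11.80), *Acrbp* (11.24), *Zpbp* (11.91) and *Zpbp2* (11.65) did not. The spermatid markers were also low in the late pachytene array, with a median of 8.55 and a summed intensity of 15483, against 53156 in early pachytene, 61123 to 65663 in mid-pachytene and 27147 to 31755 in diplotene. Their part in the drop of these 4 genes was not tested.

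Within each gene, neighbouring fractions often could not be told apart. For *Acr* the fraction means ran, from the lowest, pre-leptotene (5.36), spermatogonia (6.19), leptotene/zygotene (8.68), early pachytene (11.27), late pachytene (11.80), mid-pachytene (12.11), diplotene (12.63) and round spermatids (12.83), and the last 4 overlapped with their neighbours. For *Spaca3* they ran pre-leptotene (5.59), spermatogonia (6.72), leptotene/zygotene (7.17), late pachytene (7.49), mid-pachytene (8.76), diplotene (9.51), early pachytene (10.48) and round spermatids (11.70). The first 4 of these overlapped with their neighbours, as did mid-pachytene and diplotene.

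Over the 20 wild-type arrays, which share fractions and array numbers, the levels of the 8 genes were closely correlated. As a description, Pearson's r was highest for *Acrbp* and *Zpbp2* (0.995), *Zpbp* and *Acrbp* (0.994) and *Acrv1* and *Spaca1* (0.993). It was lowest for *Acr* and *Spaca3* (0.881). Each of *Acr*, *Acrbp*, *Zpbp* and *Zpbp2* was most like another of these 4, and each of *Acrv1*, *Spaca1*, *Spaca3* and *Sun5* most like another of theirs. These sets of 4 were drawn from values of the same arrays, so this is no separate support for them. Outside the list, the genes most like the mean course of the 8 were *Tmem225* (0.989), *Glipr1l1* (0.988), *Prss21* (0.988), *Prss46* (0.988) and *Tekt2* (0.987).

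In the Spo11-/- fractions the acrosome genes were lower than in wild type, and 7 of 8 fell when the shift shared by the 3 fractions was tested, against 10.0% of all 11980 genes tested that fell. *Acrv1* read 2.62, 2.66 and 2.71 in the Spo11-/- spermatogonia, pre-leptotene and leptotene/zygotene arrays. The lowest wild-type arrays of these fractions read 6.70, 5.02 and 7.91, and the fitted change was -4.63 ± 0.62 (limma, adjusted p = 0.000564). *Zpbp2* (3.76, 3.77 and 3.56) fell by 3.88 ± 0.80 (0.00710) and *Spaca3* (2.61, 2.69 and 2.62) by 3.86 ± 0.53 (0.000648). *Sun5* (2.51 and 2.54 in the first 2, and no higher in the third) fell by 2.30 ± 0.69 (0.0408). All Spo11-/- arrays of these 4 genes lay below log2 4. For a bound, log2 4 was set against the mean of the 3 wild-type fraction means, without regard to their spread. The falls are then at least 9.76-fold for *Acrv1*, 11.95-fold for *Zpbp2* and 5.62-fold for *Spaca3*. These do not hold in each fraction: in pre-leptotene alone the bounds are log2 2.02, 2.36 and 1.59. No such bound holds for *Sun5*, since its wild-type pre-leptotene arrays 1 and 3 (2.63 and 3.13) also lay below log2 4.

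The remaining 4 genes read above log2 4 in at least 1 Spo11-/- array, *Acr* by a small margin. *Spaca1* (3.72, 4.14 and 4.90) fell by 2.95 ± 0.54 (limma, adjusted p = 0.00370), *Acrbp* (5.04, 3.68 and 3.71) by 2.94 ± 0.73 (0.0184) and *Acr* (4.23, 4.21 and 3.95) by 2.60 ± 0.74 (0.0327). *Zpbp* stood apart with levels of 7.32, 6.54 and 7.23, well above the filter, and a difference of -1.57 ± 0.57 that did not pass (0.0835). In spermatogonia its Spo11-/- array lay within the wild-type range of 7.30 to 8.99. In leptotene/zygotene it was below all wild-type arrays (8.77 to 11.14). Taking fractions one by one, the Spo11-/- array was below every wild-type array for 7 genes in spermatogonia (29.3% of all genes), 8 in pre-leptotene (42.9%) and 8 in leptotene/zygotene (36.1%). In pre-leptotene the gap to the lowest wild-type array was 0.09 for *Sun5*, 0.1 for *Acr* and 0.14 for *Zpbp*. For *Sun5* both of these arrays read below log2 4 (2.63 and 2.54). All 3 Spo11-/- arrays were below all 10 wild-type arrays for *Acr*, *Acrv1*, *Zpbp2*, *Spaca3* and *Sun5* (10.1% of all genes). For *Acr* the highest Spo11-/- array read 4.23 and the lowest wild-type array 4.32.

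By value the gap was widest in leptotene/zygotene for 7 genes and in spermatogonia for *Spaca1*, and its difference between fractions did not pass a test. For *Acr* the Spo11-/- array was below the wild-type mean by 1.96 in spermatogonia, 1.14 in pre-leptotene and 4.73 in leptotene/zygotene. The interaction of fraction and genotype gave adjusted p of 0.614 for *Acr* and more for the other 7 (limma), where 242 genes of the 11980 were below 0.05. Without the Spo11-/- leptotene/zygotene array 3 genes fell, *Acrv1*, *Spaca1* and *Spaca3*. With each fraction alone, and the lone array taken to vary like wild type, 2 fell in spermatogonia (3.61% of all genes fell), 0 in pre-leptotene (3.61%) and 2 in leptotene/zygotene (3.22%), *Acrv1* and *Spaca3* in both cases. With 1 Spo11-/- array a fraction, these calls do not show where the gap differs. In the pre-leptotene test *Acrv1* had an unadjusted p of 0.0106 and *Spaca3* of 0.0115.

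Markers of other cells moved with this comparison, and their part in it was not tested. All 14 spermatid markers fell, and 11, 12 and 12 of them were below log2 4 in the 3 Spo11-/- arrays, with summed intensities of 116 to 146 against 27612 to 268773 in the 10 wild-type arrays. Of the 7 pachytene markers 6 fell, to medians of 3.73, 3.71 and 4.85 from 7.82 to 11.67. Spermatogonial markers had medians of 11.42, 10.74 and 11.80, and 0 of 8 changed. Of 5 tested meiotic prophase markers 1 fell, with a median change of 0.27 and medians of 10.32, 9.71 and 9.71. In wild type the prophase medians were 8.97 to 10.24, 8.86 to 9.68 and 8.58 to 9.62. Of 4 Leydig markers 1 fell, with a median change of -0.53. Of 3 tested Sertoli markers 0 passed, with medians of 5.30, 6.73 and 6.72 in the Spo11-/- arrays. In wild type the Sertoli medians were 4.91 to 5.06, 4.72 to 5.24 and 5.52 to 5.95. Macrophage and leukocyte markers had a median of 7.51 in the Spo11-/- pre-leptotene array and of 2.99 and 2.79 in the others, against 5.52 to 7.84 in wild-type spermatogonia, 2.68 to 5.31 in pre-leptotene and 2.63 to 2.92 in leptotene/zygotene. Peritubular and stromal markers had medians of 3.74, 7.74 and 4.23 in the 3 Spo11-/- arrays, and 2 of 5 fell. In wild type these medians were 5.96 to 10.00, 4.51 to 5.98 and 5.35 to 6.78.

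Other genes of the acrosome, from lists of 67 related genes of which 65 were on the array, are given by counts. These counts are read against the shares of all genes. Of all genes, 3.03% rose into leptotene/zygotene, 14.2% into mid-pachytene, 12.5% into round spermatids and 31.9% from pre-leptotene to round spermatids. In Spo11-/- cells 10.0% fell, and 1.64% fell from spermatogonia to pre-leptotene. Into mid-pachytene 3839 of the 13087 genes were called, 1854 of them rising and the rest falling. From diplotene into round spermatids 3199 were called, 1633 of them rising and the rest falling. Of 15 genes for acrosomal contents, 4 rose into leptotene/zygotene, among them *Spink2* (3.21 ± 0.48), a protease inhibitor of the acrosome, and *Dkkl1* (3.05 ± 0.72). At the next step, into mid-pachytene, 10 rose, led by *Dkkl1* (3.10 ± 0.80), and 9 rose into round spermatids, led by *Zan* (2.75 ± 0.34), which encodes the zona-binding protein zonadhesin. All 15 rose from pre-leptotene to round spermatids, and the medians of these 3 steps were 1.79, 2.32 and 2.21. In Spo11-/- cells 13 of 14 tested fell, *Spink2* by 6.29 ± 0.54 among them.

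Among 10 tested genes for acrosomal and head membranes, 0 rose into leptotene/zygotene, 7 into mid-pachytene and 8 into round spermatids. *Spaca6*, needed for sperm-egg fusion, rose by 3.25 ± 0.68 and by 2.84 ± 0.65 at these latter steps, and *Izumo1*, the sperm ligand of the egg receptor JUNO, by 2.58 ± 0.67 into mid-pachytene. Of 8 tested in Spo11-/- cells 6 fell. *Izumo3* fell from spermatogonia to pre-leptotene (-2.88 ± 0.58), as did *Prss37* (-3.30 ± 0.61) with *Galntl5* and *Crisp2* of the contents list.

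Of 19 genes for building the acrosome, 2 rose into leptotene/zygotene, *Dpy19l2* (3.01 ± 0.66), which holds the acrosome to the nuclear envelope, and *Spata16* (2.73 ± 0.67), a Golgi protein. At mid-pachytene 5 rose. Into round spermatids 5 rose, led by *Ccin* (3.01 ± 0.60), which encodes calicin of the sperm head cytoskeleton, and 2 fell, *Mfsd14a* by 3.02 ± 0.39 and *Vps54*, of the Golgi tethering complex, by 2.09 ± 0.31. In Spo11-/- cells 7 of 19 fell, led by *Actl9* and *Actl7a*, actin-like proteins of the sperm head (-4.97 ± 0.72 and -4.46 ± 0.78).

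Of 12 tested genes that couple head and tail, as *Sun5* does, 1 rose into leptotene/zygotene, *Rimbp3* (2.39 ± 0.53). At mid-pachytene 3 of 12 rose (14.2% of all genes), led by *Cntln* (3.52 ± 0.43), and 1 fell, *Tsga10* (-1.27 ± 0.43). Into round spermatids 5 rose, among them *Spag4*, another SUN-domain gene (2.43 ± 0.67), and *Cntln* fell (-1.55 ± 0.41). In Spo11-/- cells 7 fell. Of 8 germ cell regulators, *Rfx2* (2.38 ± 0.51) and *Mybl1* (1.38 ± 0.36), which encodes A-MYB, the activator of pachytene genes, rose into leptotene/zygotene. At mid-pachytene 5 rose, *Crem* among them (2.18 ± 0.77), and *Taf7l* fell (-1.50). Only *Fhl5*, a partner of CREM, rose into round spermatids (2.35 ± 0.61). In Spo11-/- cells *Fhl5*, *Rfx2* and *Crem* fell. From pre-leptotene to round spermatids all 10 tested membrane genes rose. Over the same span 12 of the 19 genes for building the acrosome rose and 2 fell. Of the 12 head-tail genes 10 rose and 2 fell, and of the 8 regulators 7 rose and 1 fell.

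Probe sets other than those used gave the following. A further probe set of *Acrbp* ran from 3.78 to 13.50 over the wild-type arrays, and its changes were 3.20 into leptotene/zygotene and 3.27 into mid-pachytene. Those of *Spaca3*, *Zpbp* and *Zpbp2* never exceeded 3.13, 2.94 and 3.41 and stayed below the filter.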

How the data were processed

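The deposited values are intensity per probe set, summarised with GCRMA by the authors, per the submitters' processing notes; version and settings are not given in the sources used here. They ran from 1.48 to 107451, were read as linear, and were analysed as log2(value + 1). Array medians lay between 10.63 and 12.56. Of 45037 probe sets, 34945 carried 1 symbol, 932 several and 9160 none in the platform annotation; the first group was used, and 34741 were joined to RefSeq GRCm38.p6 by Entrez identifier. Where several probe sets stood for 1 of the 18193 genes, the one brightest on average in wild type was kept. Genes with log2 of at least 4 in at least 2 arrays were tested, 13087 in the wild-type fit and 11980 in the Spo11-/- fit.

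A mean per fraction was fitted with limma 3.58.1 in R 4.3.3 over all wild-type arrays, so that early and late pachytene, with 1 array each, added nothing to the spread. The Spo11-/- fit, over 13 arrays, added a genotype term to the fractions, which takes the 3 Spo11-/- arrays as independent. Calls needed a Benjamini-Hochberg adjusted p below 0.05 and an absolute log2 change of at least 1. The scripts were tested on simulated data. The 8 genes, the related lists and the markers were chosen with earlier results of these data known, and the comparison of round spermatids with spermatogonia was added later. From each related list, up to 3 genes past the test with the largest changes were named per comparison; *Prm1*, *Prm2*, *Cabyr*, *Vps54*, *Tsga10*, *Cntln* among the falls and *Taf7l* were named after their values were seen.

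The labels number the arrays but do not say what a number marks. Deviations of same-numbered arrays from their fraction means, over 22375 probe sets, had Pearson's r of 0.597, 0.572 and 0.216 for the pre-leptotene and spermatogonia pairs, 0.622, 0.221 and 0.400 for the leptotene/zygotene and pre-leptotene pairs, and 0.178 to 0.369 for round spermatids with pre-leptotene. All of these exceeded 0.1, and over the 13087 genes the lowest of them was 0.083. The replicate block is given beside the 3 steps where it changed a count, whether or not their pairs all exceeded 0.1. Into mid-pachytene r was 0.549 and 0.384 over probe sets, and from diplotene into round spermatids 0.606 and 0.071. Round spermatids with spermatogonia have 4 pairs, at 0.148 to 0.421. The steps between neighbouring replicated fractions from leptotene/zygotene on have 2 pairs each. Alternatives covered the filter, the probe set, quantile normalization and median centring, the pseudocount, eBayes settings, array weights, the fold minimum, the block, the arrays in the fit and leaving out each array. No 2 arrays shared identical values at more than 524 probe sets. The number of arrays limits the precision.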

Additional observations from a re-analysis of the deposited data

How the results depend on the processing

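Of 1304 alternative values for single genes, 1189 kept their direction and side of the threshold, 66 lost the call, 34 gained it and 15 turned. All 8 genes rose from pre-leptotene or spermatogonia to round spermatids, and 0 passed from spermatogonia to pre-leptotene or from mid-pachytene to diplotene, under each alternative run. Into leptotene/zygotene the count of 1 became 3 with array weights, 6 with the replicate block, 0 with the 2 fractions alone, and 0 to 5 without single arrays. Into mid-pachytene the count of 6 became 2 without the filter and 0 to 7 without single arrays; the replicate block gave 7. Into round spermatids the count of 1 became 3 with a pseudocount of 16, 3 with array weights, 4 with the replicate block, 2 with the 2 fractions alone, and 0 to 3 without single arrays. The Spo11-/- count of 7 became 2, 0 and 2 in spermatogonia, pre-leptotene and leptotene/zygotene alone, and 3 to 7 without single arrays. With array weights the Spo11-/- count was 8, *Zpbp* being added. It was 5 without the filter, 5 with a pseudocount of 16 and 5 without wild-type spermatogonia arrays 1 and 2 together. The replicate block changed no other count. None of the turned values was called. Without single arrays, *Zpbp* ran from -1.0 to 0.10 into pre-leptotene (turned without pre-leptotene array 1). Into diplotene *Acrv1* ran from -0.57 to 1.54, *Spaca1* from -0.80 to 1.48, *Sun5* from -0.53 to 1.41 and *Acr* from -0.15 to 1.19 (all turned without mid-pachytene array 1, and the first 3 also without diplotene array 2, to -0.28, -0.57 and -0.34). Into round spermatids *Zpbp2* ran from -0.36 to 0.95, *Acr* from -0.02 to 0.41, *Zpbp* from -0.01 to 1.07 and *Acrbp* from -0.70 to 1.05 (turned without diplotene array 1). At that step *Zpbp2* (-0.21) and *Acrbp* (-0.20) also turned with the block, and *Acrbp* (-0.13) with its other probe set. The causes were not tested. Median centring moved the median of all genes by -0.15 to 0.29 between comparisons, and quantile normalization by up to 0.19; neither turned a member. A fit that leaves 1 array in a fraction assumes that it varies like the others. With 1 Spo11-/- array a fraction, and dim signal below log2 4, small differences there could not be measured.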
